A study of Rattus norvegicus with 24 samples.

Results

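RNA sequencing was used to compare primary cardiac fibroblasts from rats aged 10-13 weeks with those from rats aged 3-4 weeks, both kept for 24 hours in DMEM with 5.5 mM glucose. The comparison holds 3 libraries at 10-13 weeks and 3 libraries at 3-4 weeks, 6 of the 24 libraries of a study that also has cells from animals aged 0-3 days and 20 months and cultures in 33 mM glucose (here high glucose). The libraries were chosen by the age and glucose given in the labels, without use of any measured value. All groups were grown in DMEM with 10% fetal bovine serum, and no group carries a genetic change that the labels name. The labels give no strain, sex, passage number or number of animals, and they do not say whether libraries are separate animals or separate cultures, so the p values measure the spread between libraries.

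Cardiac fibroblasts build and renew the collagen-rich matrix of the heart, and they carry the genes for myofibroblast conversion, in which contractile proteins and matrix are made after injury. In the rat the heart grows rapidly between weaning and young adulthood. Primary isolates can also hold resident heart macrophages, which attach to culture plastic together with fibroblasts.

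The 6 libraries held 18889708 to 20043181 counts. Fibroblast markers were abundant in both groups, with a summed level over 18 markers of 58852 to 62760.5 CPM at 10-13 weeks, against 57965 to 58889 CPM at 3-4 weeks (CPM is counts scaled to a common library size). Col1a2, the second chain of type I collagen, is listed at 0 counts in both groups. Pdgfra, a receptor that marks heart fibroblasts, had 216, 182 and 202 CPM at 10-13 weeks, against 134, 213 and 322 CPM at 3-4 weeks. It did not pass (log2 change -0.16, adjusted p = 0.866). In all, 1 of 17 tested fibroblast markers passed the test (3.59% of all tested genes did), Pi16, which marks adventitial fibroblasts (log2 change -0.88, SE 0.20, adjusted p = 0.0131). The Pi16 call was lost without the 10-13 weeks library numbered 1 or 2 or the 3-4 weeks library numbered 1. The 3-4 weeks library numbered 1 stood apart from the other two of its group. Its level was below that of the mean of the other two for all 37 cell cycle genes, with a median ratio of 0.291, and it was the highest of its group for 46 of 52 macrophage genes, with a median ratio of 1.83. For that reason counts are also given without this library.

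Of 13806 genes tested, 496 passed at a Benjamini-Hochberg adjusted p under 0.05 (3.59% called), 153 of them higher at 10-13 weeks (1.11%) and 343 lower (2.48%). The decreases were larger: the median log2 change of called genes was 0.68 for those higher and -1.55 for those lower, while the median over all tested genes was -0.0015. Changes over 2-fold were seen for 53 of the genes called higher and 230 of those called lower. The fit takes its estimate of spread from all 24 libraries, among which same-numbered libraries of both glucose levels deviated together. With the 12 normal glucose libraries of the 4 ages alone 401 genes were called (2.96%), and with the 6 libraries alone 141. Single libraries moved these counts: 270 genes were called without the 3-4 weeks library numbered 1, 227 without the 10-13 weeks library numbered 2 and 323 without the 10-13 weeks library numbered 1. Of the 343 genes called lower, 169 were still called without the 3-4 weeks library numbered 1, and all 343 kept their sign. That library exceeded 1.5 times the mean of the other two in 40.8% of the genes called lower, against 7.58% of all tested genes and 3.92% of the genes called higher.

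**Figure D1:**
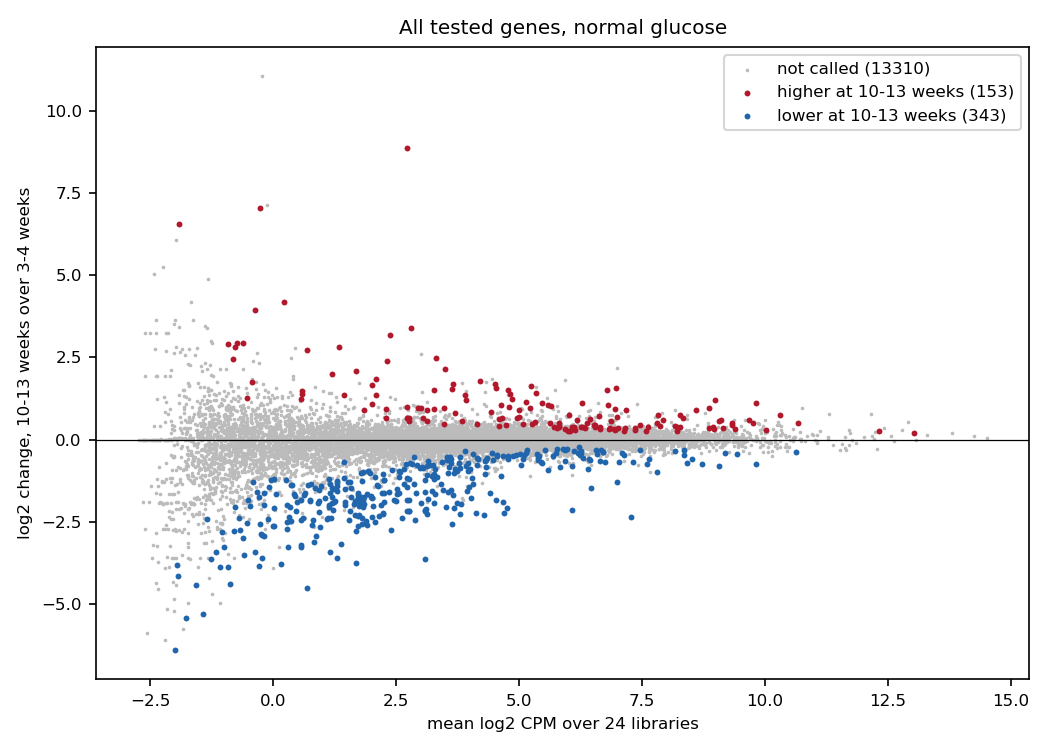
Log2 change of every tested gene, 10-13 weeks over 3-4 weeks in normal glucose (vertical axis), against its mean log2 CPM over 24 libraries (horizontal axis); each point is 1 gene. The 343 genes called lower (blue) lie mostly at low to middle mean log2 CPM, with a median change of -1.55, while the 153 called higher (red) have a median change of 0.68 and spread over the whole range of levels.

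Macrophage genes made up the clearest group among the decreases. Of 58 macrophage genes listed, 52 passed the filter on low counts, and 36 of them fell while 0 rose, where 2.48% of all tested genes fell. The median log2 change over the 52 was -2.08. Without the 3-4 weeks library numbered 1, 24 of them were called lower, where 1.29% of all tested genes were. Without both 3-4 weeks libraries numbered 1 (normal and high glucose) 30 were, where 1.6% of all tested genes were. Without the 10-13 weeks library numbered 1 the number was 26, where 214 of all 13986 tested genes were called lower. Without the 10-13 weeks library numbered 2 it was 25, where 158 of all 13984 tested genes were. In bulk RNA, fewer macrophages and less RNA per macrophage cannot be told apart.

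The receptors that macrophages need for survival and migration were mostly lower. Csf1r, the receptor for colony stimulating factor 1, had 7.04, 5.51 and 7.50 CPM at 10-13 weeks, against 51.2, 26.0 and 16.7 CPM at 3-4 weeks (log2 change -2.23, SE 0.42, adjusted p = 0.00449). The groups did not overlap, and the 3-4 weeks library numbered 1 was the highest. C5ar1, a receptor for complement fragment C5a, had 2.74, 1.66 and 4.64 CPM at 10-13 weeks, against 23.3, 10.9 and 9.25 CPM at 3-4 weeks (log2 change -2.26, SE 0.42, adjusted p = 0.00422). Altogether 5 of 6 tested growth factor and chemokine receptors of the list were called, and 3 without the 3-4 weeks library numbered 1.

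Among surface antigens, 5 of 8 fell. Adgre1, which encodes the F4/80 antigen, had 0.104, 0.0535 and 0.260 CPM at 10-13 weeks, against 5.08, 3.17 and 1.66 CPM at 3-4 weeks (log2 change -4.50, SE 0.78, adjusted p = 0.00262). Ptprc, the pan-leukocyte antigen CD45, had 2.23, 1.87 and 3.28 CPM at 10-13 weeks, against 21.6, 9.30 and 9.01 CPM at 3-4 weeks (log2 change -2.43, SE 0.38, adjusted p = 0.00134). Both were lower in every 10-13 weeks library than in any 3-4 weeks library, as were 10.3% of all tested genes, and Adgre1 was close to absent at 10-13 weeks. Among the scavenger, pattern and Fc receptors 6 of 9 fell, among them Msr1 (log2 change -2.25) and Mrc1 (log2 change -2.09), the mannose receptor. All 8 tested signalling adaptors fell, with log2 changes of -3.12 (Vav1, an exchange factor for Rac) to -1.86 (Tyrobp, the adaptor of activating myeloid receptors), though 4 were called without the 3-4 weeks library numbered 1.

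Spi1, which encodes PU.1, the transcription factor that specifies myeloid cells, had 1.09, 0.535 and 1.25 CPM at 10-13 weeks, against 9.12, 4.47 and 4.45 CPM at 3-4 weeks (log2 change -2.64, SE 0.46, adjusted p = 0.00242). Ikzf1 fell too (log2 change -3.85, adjusted p = 0.00765), while Irf8 and Irf5 had log2 changes of -0.39 and -0.34 and did not pass. Mpeg1, which encodes the pore-forming protein perforin-2, had 1.24, 1.44 and 1.77 CPM at 10-13 weeks, against 30.9, 10.8 and 13.3 CPM at 3-4 weeks (log2 change -3.62, SE 0.45, adjusted p = 0.000198). Pf4, a platelet and macrophage chemokine, had 0.673, 0.642 and 0.781 CPM at 10-13 weeks, against 3.83, 3.64 and 3.52 CPM at 3-4 weeks (log2 change -2.38, SE 0.29, adjusted p = 0.000126). The 3 Pf4 values at 3-4 weeks lay close together. C1qa, a subunit of complement C1q, had 1.24, 1.66 and 1.51 CPM at 10-13 weeks, against 4.82, 7.69 and 3.43 CPM at 3-4 weeks (log2 change -1.85, SE 0.29, adjusted p = 0.00116). There the 3-4 weeks library numbered 2 was the highest. Lyz2, the macrophage lysozyme, had 49.1, 57.6 and 102 CPM at 10-13 weeks, against 655, 211 and 189.5 CPM at 3-4 weeks (log2 change -2.34, SE 0.57, adjusted p = 0.0244). Here the 3-4 weeks library numbered 1 had more than the other two together.

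Not all members moved as far. Gpnmb, a lysosomal glycoprotein, had 582, 583 and 650.0 CPM at 10-13 weeks, against 1171, 790.0 and 1062 CPM at 3-4 weeks (log2 change -0.74, SE 0.13, adjusted p = 0.00314). Lgmn, Cyba and Spp1 had log2 changes of -0.40, -0.25 and -0.78 and did not pass. The summed level of the 58 genes, of which Gpnmb makes a large share, was 1087 to 1361 CPM at 10-13 weeks, against 1854 to 3186 CPM at 3-4 weeks. Across the 4 ages Csf1r averaged 46.1 CPM at 0-3 days, 31.3 CPM at 3-4 weeks, 6.68 CPM at 10-13 weeks and 7.85 CPM at 20 months in normal glucose, and Mpeg1 averaged 49.4 CPM at 0-3 days, 18.3 CPM at 3-4 weeks, 1.49 CPM at 10-13 weeks and 4.03 CPM at 20 months. The summed level of the list averaged 3359 CPM at 0-3 days, 2395 CPM at 3-4 weeks, 1197 CPM at 10-13 weeks and 2899 CPM at 20 months in normal glucose. It was lowest at 10-13 weeks, while Csf1r was about as low at 20 months.

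**Figure D2:**
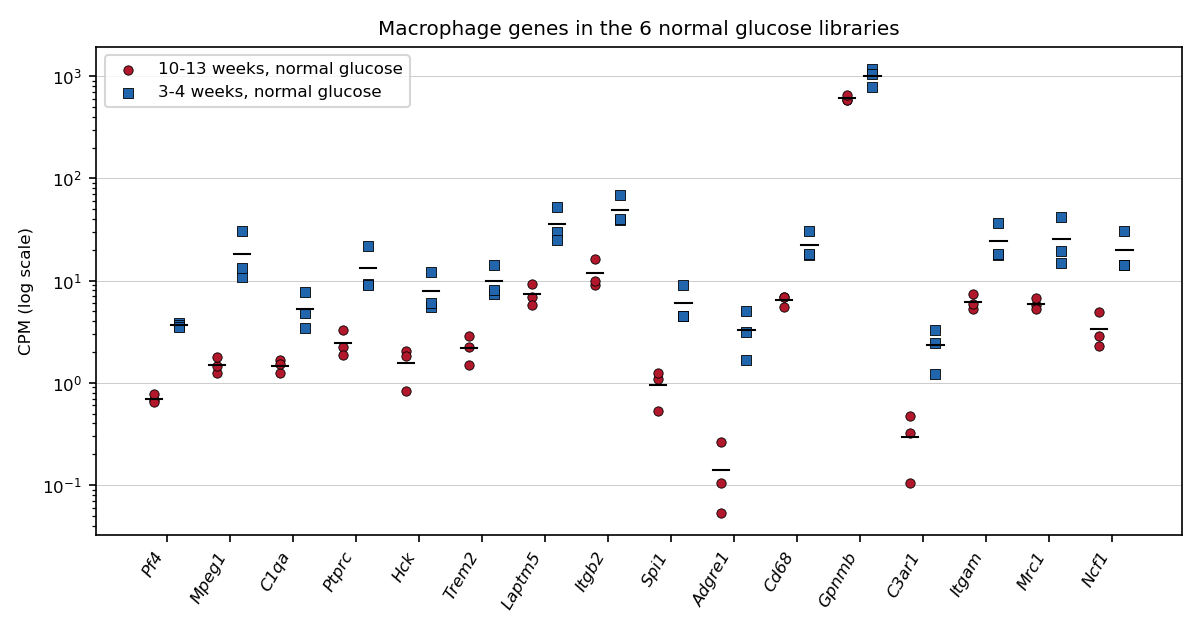
CPM on a log axis of the 16 macrophage genes with the smallest adjusted p, in the 3 libraries at 10-13 weeks (red circles) and the 3 at 3-4 weeks (blue squares), with the group mean as a bar. Each gene's 10-13 weeks values lie below its 3-4 weeks values, by the least for Gpnmb (log2 change -0.74) and by the most for Adgre1 (log2 change -4.50).

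The PU.1 motif core GAGGAA stands in the 150 bases before the start of Lyz2 and Cybb, 2 of the genes that fell. These windows are RefSeq sequences of build GRCr8, printed 5′ to 3′ on the gene's strand with the motif or its reverse complement (TTCCTC) in capitals. They are examples from the called macrophage genes whose window holds the motif. A part of PU.1 in the decreases was not tested.
Lyz2 (chr7:54798012-54798161, minus strand): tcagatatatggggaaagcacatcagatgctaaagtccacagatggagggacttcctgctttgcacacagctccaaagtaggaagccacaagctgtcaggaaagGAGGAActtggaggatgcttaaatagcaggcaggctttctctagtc
Cybb (chrX:16065066-16065215, minus strand): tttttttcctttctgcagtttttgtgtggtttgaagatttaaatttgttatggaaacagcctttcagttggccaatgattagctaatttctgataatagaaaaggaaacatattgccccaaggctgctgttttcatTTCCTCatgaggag
The motif was searched on both strands and stands in 14.5% of the 33469 promoters of the table. Of the 52 tested macrophage genes 36 matched a promoter, under the 80% of members set as the least for giving a list's share. A match is a description of the letters and does not show binding.

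Several genes outside the list ranked among the largest decreases. Itgal, the alpha chain of the integrin LFA-1, had 0.777, 0.535 and 0.833 CPM at 10-13 weeks, against 17.3, 6.81 and 4.90 CPM at 3-4 weeks (log2 change -3.74, SE 0.64, adjusted p = 0.00242). Siglec1, the sialic acid receptor CD169, had 0.104, 0.375 and 0.885 CPM at 10-13 weeks, against 9.22, 3.12 and 4.55 CPM at 3-4 weeks (log2 change -3.61, SE 0.50, adjusted p = 0.000442). Stab1, a scavenger receptor of tissue macrophages, had 0.570, 0.214 and 0.573 CPM at 10-13 weeks, against 5.03, 5.92 and 1.62 CPM at 3-4 weeks (log2 change -3.19, SE 0.52, adjusted p = 0.00169). Inpp5d, the lipid phosphatase SHIP1, and Pik3cg, the leukocyte phosphoinositide 3-kinase gamma, fell with log2 changes of -2.77 and -2.45, as did Arhgap30 (-2.61), Nfam1 (-2.58), Parvg (-3.40), Hmha1 (-2.50) and Myo1g (-2.47). In each of these genes but Stab1 the 3-4 weeks library numbered 1 was the highest of its group. Selplg, the P-selectin ligand of leukocytes, differed in that its 3 values at 3-4 weeks were alike, with 2.02, 2.35 and 3.12 CPM at 10-13 weeks, against 8.12, 7.22 and 7.34 CPM at 3-4 weeks (log2 change -1.59, SE 0.20, adjusted p = 0.000143). Pik3cg lost its call without any of 3 of the 6 libraries.

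Markers of other cell types gave few calls, where 1.11% of all tested genes rose and 2.48% fell. Of 11 endothelial, 12 smooth muscle and pericyte, 10 epicardial and mesothelial, 18 cardiomyocyte, 4 adipocyte, 2 mast cell and neutrophil and 4 Y-linked genes tested, 0 of these 61 were called by edgeR, with 17 at an unadjusted p under 0.05, and DESeq2 called 0. Over all 13806 tested genes edgeR gave 2310 at an unadjusted p under 0.05. Cdh5, the cadherin of endothelial junctions, was among the 17, with 4.25, 0.856 and 1.72 CPM at 10-13 weeks, against 0.681, 0.831 and 0.783 CPM at 3-4 weeks (log2 change 1.57, adjusted p = 0.271). So was Cnn1, the smooth muscle calponin, with 11.3, 27.0 and 15.5 CPM at 10-13 weeks, against 7.91, 12.3 and 5.09 CPM at 3-4 weeks (log2 change 1.09, adjusted p = 0.15). The cardiomyocyte markers Myh6, Myh7 and Nppa had no count at 10-13 weeks only, and Mb and Ryr2 had none at 3-4 weeks only. Ckm, Myl2 and Myl7 had none in either group. The cardiomyocyte list summed to 90.0 to 103 CPM at 10-13 weeks, against 96.6 to 179.9 CPM at 3-4 weeks. Tnnc1, the slow troponin C, had the smallest p of that list, with 0.880, 0.963 and 0.677 CPM at 10-13 weeks, against 0.472, 0.364 and 0.343 CPM at 3-4 weeks (log2 change 1.09, adjusted p = 0.0651), and its groups did not overlap. Of the 18 tested members 8 had a positive and 7 a negative log2 change, and the rest had none. The list averaged 97.2 CPM at 10-13 weeks, 128.5 CPM at 3-4 weeks and 2367 CPM at 0-3 days in normal glucose. The filter on low counts took all groups of the study, so members near absent at both compared ages could pass it through 0-3 days. For such members the lack of a call says little. Among Schwann cell markers 1 of 5 tested fell, the neuregulin receptor gene Erbb3 (log2 change -2.04, adjusted p = 0.0206). The Erbb3 call was lost without any of 3 of the 6 libraries. Of 2 tested lymphocyte markers 1 fell, Cd4, which rat macrophages also carry (log2 change -2.42, adjusted p = 0.00405), while the T cell genes Cd3d and Cd3e and the B cell gene Ms4a1 had no count in either group. No erythroid gene passed the filter, and the Y-linked genes summed to 156 to 174 CPM at 10-13 weeks, against 148 to 171 CPM at 3-4 weeks.

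The 2 largest increases among called genes, RT1-CE16 and RT1-A3, belonged to the RT1 class I genes, the rat's genes for the molecules that present peptides to cytotoxic T cells. Of 20 class I genes tested, 5 rose and 2 fell, where 1.11% of all tested genes rose and 2.48% fell, with a median log2 change of 0.08. RT1-CE16 had 38.6, 31.0 and 58.4 CPM at 10-13 weeks, against 0, 0.156 and 0.0979 CPM at 3-4 weeks (log2 change 8.87, SE 0.64, adjusted p = 3.66e-07), at chr20:3791407-3794027 on Rnor_6.0. It was near absent in all 3 libraries at 3-4 weeks and well expressed in all 3 at 10-13 weeks. RT1-A3 had 427 counts over the 3 libraries at 10-13 weeks, against 3 counts at 3-4 weeks, a ratio of 141 in scaled libraries (exact 95% interval 48.0 to 688, covering counting error only). RT1-A3 overlaps RT1-CE16 on the same strand, so the counts of these 2 genes cannot be kept apart with certainty.

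RT1-A1 had 23.5, 36.7 and 29.9 CPM at 10-13 weeks, against 1.52, 2.70 and 4.26 CPM at 3-4 weeks (log2 change 3.40, SE 0.37, adjusted p = 3.66e-05). RT1-A2, whose span lies inside that of RT1-A1, moved the other way. It had 54.7, 32.6 and 49.4 CPM at 10-13 weeks, against 103, 97.1 and 175 CPM at 3-4 weeks (log2 change -1.46, SE 0.28, adjusted p = 0.00517). Both genes encode classical class I heavy chains, and their groups did not overlap. RT1-CE7 rose with 21.0, 31.2 and 26.6 CPM at 10-13 weeks, against 6.39, 12.6 and 14.9 CPM at 3-4 weeks (log2 change 1.22, SE 0.26, adjusted p = 0.00961), as did RT1-M6-1 (log2 change 1.36, SE 0.24, adjusted p = 0.00262). RT1-N2 fell (log2 change -2.03, SE 0.55, adjusted p = 0.0437). RT1-T24-2, which is not on the list, rose (log2 change 2.81, SE 0.62, adjusted p = 0.0132). That call was lost without the 10-13 weeks library numbered 2 or either 3-4 weeks library numbered 1 or 2. RT1-T24-2 overlaps RT1-T24-1 on the same strand, which went the other way and did not pass (log2 change -1.26, adjusted p = 0.376). RT1-CE7 overlaps RT1-CE2, RT1-CE4 and RT1-CE5 on the same strand, none of which passed. The counts of these overlapping genes cannot be kept apart with certainty either. RT1 class I genes belong to several families with close copies and differ between rat strains. How the authors' counting shared reads among copies is not given in the sources used here. The labels name no strain, so a difference in strain or RT1 type between the age groups cannot be told apart from the difference in age.

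The deposited FPKM values, which are scaled by gene length and can be set beside each other, put RT1-A2 at 22.0 FPKM at 10-13 weeks, against 62.7 FPKM at 3-4 weeks. RT1-CE16 stood at 35.9 FPKM at 10-13 weeks, against 0.0742 FPKM at 3-4 weeks. B2m, the light chain shared by all class I molecules, had 626, 695 and 1152 CPM at 10-13 weeks, against 1038, 899 and 1537 CPM at 3-4 weeks (log2 change -0.49, SE 0.24, adjusted p = 0.309), a difference that did not pass. Tap1, part of the peptide pump, did not pass either (log2 change 0.13, adjusted p = 0.629), and of 10 genes for peptide loading 1 was called, Erap1, which trims peptides (log2 change -0.42, SE 0.099, adjusted p = 0.0188). RT1-CE16, RT1-A3, RT1-A1, RT1-A2 and RT1-M6-1 kept their calls whichever single library was left out. RT1-CE7 lost its call without the 10-13 weeks library numbered 2. RT1-N2 lost it without either of the 10-13 weeks libraries numbered 2 and 3 or of the 3-4 weeks libraries numbered 1 and 3.

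The same class I pattern stood in the high glucose cultures. RT1-CE16 there had 36.6, 27.5 and 59.0 CPM at 10-13 weeks and 0.188, 0 and 0.204 CPM at 3-4 weeks. RT1-N2 had 2.90, 0.268 and 2.14 CPM at 10-13 weeks, against 9.22, 4.47 and 8.08 CPM at 3-4 weeks in normal glucose. In high glucose it had 3.03, 0.381 and 2.10 CPM at 10-13 weeks and 5.69, 5.89 and 8.11 CPM at 3-4 weeks. At 10-13 weeks, library 2 had the lowest RT1-N2 value of its group in both glucose levels. Across ages RT1-CE16 averaged 4.09 CPM at 0-3 days, 0.0846 CPM at 3-4 weeks, 42.6 CPM at 10-13 weeks and 67.1 CPM at 20 months. RT1-A1 averaged 8.09 CPM at 0-3 days, 2.83 CPM at 3-4 weeks, 30.0 CPM at 10-13 weeks and 3.77 CPM at 20 months. Thus the 2 genes did not follow each other over the 4 ages.

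**Figure D3:**
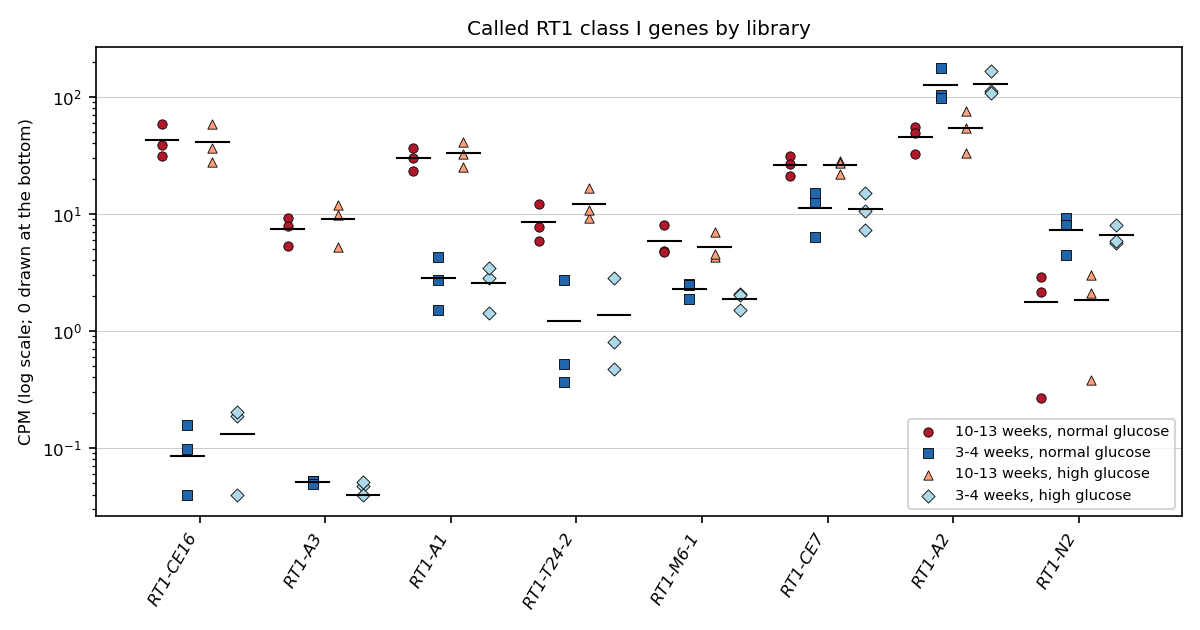
CPM on a log axis of 8 called RT1 class I genes in each library at 10-13 weeks and 3-4 weeks, in normal glucose (circles, squares) and high glucose (triangles, diamonds), with group means as bars; a value of 0 is drawn at the bottom. RT1-CE16 and RT1-A3 are separated by over 1 order of magnitude between the ages in both glucose levels, and RT1-A2 and RT1-N2 lie lower at 10-13 weeks.

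Class II genes, which macrophages and dendritic cells use to present peptides to helper T cells, fell in part. Of 7 tested, 3 fell (2.48% of all tested genes did) and 0 rose, with a median log2 change of -1.5. Cd74, the invariant chain that chaperones class II, had 1.19, 1.61 and 3.33 CPM at 10-13 weeks, against 11.3, 12.4 and 17.7 CPM at 3-4 weeks (log2 change -2.75, SE 0.43, adjusted p = 0.00116). In contrast to most macrophage genes, its level in the 3-4 weeks library numbered 1 was the lowest of the 3. RT1-Da and RT1-DMa fell as well (log2 change -1.99 and -1.5), at low levels. RT1-Da lost its call without any 1 of the 6 libraries, and RT1-DMa without any of 5. Of the list's 6 decreases, 2 to 4 were called when single libraries were left out. Over all 13973 to 13987 tested genes, 158 to 325 were called lower in those fits.

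The RT1 genes lie together in the rat major histocompatibility complex on chromosome 20. In the stretch spanned by the tested RT1 genes, chr20:154074-5421098 on Rnor_6.0, 17 of 136 tested genes were called (12.5%), 10 higher and 7 lower, against 3.50% of the 13670 genes elsewhere. Without the genes named RT1, 7 of 110 in that stretch were called (6.36%). They include Neu1, the lysosomal sialidase (log2 change 0.74, adjusted p = 0.0054), Ddr1, a collagen receptor (log2 change 0.44, adjusted p = 0.00565), and the macrophage gene Aif1 (log2 change -2.59, adjusted p = 0.00885). The largest increases among them were Rps2-ps2 (log2 change 6.57, adjusted p = 0.0328) and LOC100364500 (log2 change 3.17, adjusted p = 0.000906). Rps2-ps2 had 33 counts at 10-13 weeks and 0 at 3-4 weeks. LOC100909630 (log2 change -1.79) and LOC102549726 (log2 change -0.43) fell. The stretch and the genes named from it were chosen after their values were seen, and no test was made of the stretch.

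Interferon response genes did not move as a called group. Of 37 tested, 1 fell (2.48% of all tested genes did) and 0 rose, with a median log2 change of -0.51. A negative log2 change was seen for 32 of the 37 and a positive one for 5. With edgeR 11 had an unadjusted p under 0.05, as had 2310 of all 13806 tested genes. The one called was Irf9, a transcription factor of interferon signalling, with 17.2, 16.3 and 15.5 CPM at 10-13 weeks, against 23.3, 22.3 and 26.1 CPM at 3-4 weeks (log2 change -0.55, SE 0.11, adjusted p = 0.00473).

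Part of the glycolysis genes were modestly higher at 10-13 weeks: 8 of 28 tested rose (1.11% of all tested genes did) and 0 fell, with a median log2 change of 0.28. Ldha, which turns pyruvate into lactate, had 631, 838 and 749 CPM at 10-13 weeks, against 535, 493 and 523 CPM at 3-4 weeks (log2 change 0.52, SE 0.10, adjusted p = 0.00517). Slc2a1, the glucose transporter GLUT1, had 91.4, 114 and 87.7 CPM at 10-13 weeks, against 58.7, 59.3 and 71.0 CPM at 3-4 weeks (log2 change 0.63, SE 0.15, adjusted p = 0.0172). Eno1 (log2 change 0.34, adjusted p = 0.0186), Pfkl (log2 change 0.73, adjusted p = 0.0236) and Aldoa (log2 change 0.28, adjusted p = 0.0314) rose by less than 2-fold. So did Gapdh (log2 change 0.31, adjusted p = 0.038), Pgk1 (log2 change 0.35, adjusted p = 0.0395) and Pgm1 (log2 change 0.30, adjusted p = 0.0395). All are enzymes of the pathway or of its entry from glycogen. Ldha kept its call whichever single library was left out, and most of the other calls did not: 1 member was called without the 3-4 weeks library numbered 1, and 1 without the 10-13 weeks library numbered 2. The count was 3 without the 3-4 weeks library numbered 2, 4 without that numbered 3, 5 without the 10-13 weeks library numbered 1 and 6 without that numbered 3. Over all 13973 to 13987 tested genes, 69 to 142 were called higher in these fits. With plain library totals 3 members were called, with no filter on low counts 4, and with the 12 normal glucose libraries of the 4 ages alone 3. In that order, 117 of 13806, 128 of 19310 and 120 of 13567 tested genes were called higher.

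Of 26 tested genes of the hypoxia response, 4 rose and 1 fell (1.11% and 2.48% of all tested genes did), with a median log2 change of 0.37. Plod2, which hydroxylates collagen lysines for cross-linking, had 1878, 1842 and 2111 CPM at 10-13 weeks, against 1555, 1226 and 1341 CPM at 3-4 weeks (log2 change 0.50, SE 0.10, adjusted p = 0.00713). It kept its call whichever single library was left out. Stc2, a secreted glycoprotein, had 115, 66.1 and 86.6 CPM at 10-13 weeks, against 33.5, 45.3 and 34.6 CPM at 3-4 weeks (log2 change 1.24, SE 0.32, adjusted p = 0.0355). Its call was lost without any of 4 of the 6 libraries. Fam162a (log2 change 0.51, adjusted p = 0.0154) and the oxidoreductase gene Ero1l (log2 change 0.39, adjusted p = 0.0381) rose as well. Ndrg1, a stress-response gene, went the other way with 5.80, 7.76 and 6.56 CPM at 10-13 weeks, against 14.1, 11.4 and 15.3 CPM at 3-4 weeks (log2 change -1.02, SE 0.25, adjusted p = 0.0252). It lost its call without any of 5 of the 6 libraries. Without single libraries 1 to 4 of the list were called higher, where 69 to 142 of all 13973 to 13987 tested genes were. With the 12 normal glucose libraries alone 2 of the list were, where 120 of 13567 tested genes were.

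ACGTG, the core of the hypoxia response element, was searched on both strands of the 150 bases before each RefSeq gene start. It stands in 10.8% of the 33469 promoters. Of the glycolysis genes 26 of 28 matched a promoter and 9 of these held it (34.6%), and of the hypoxia genes 21 of 26 matched and 8 held it (38.1%); the hypoxia list was drawn up from known targets of the pathway, and the shares are descriptions. The windows of 3 genes that rose are shown, with the motif or its reverse complement (CACGT) in capitals, on build GRCr8.
Ldha (chr1:106507942-106508091, plus strand): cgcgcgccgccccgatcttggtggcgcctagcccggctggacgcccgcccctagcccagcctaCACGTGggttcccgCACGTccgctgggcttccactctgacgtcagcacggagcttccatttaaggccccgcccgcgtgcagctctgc
Slc2a1 (chr5:138002372-138002521, plus strand): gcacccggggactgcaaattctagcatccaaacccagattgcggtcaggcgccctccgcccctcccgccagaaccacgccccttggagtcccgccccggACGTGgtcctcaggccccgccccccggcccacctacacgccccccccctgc
Plod2 (chr8:101964168-101964317, plus strand): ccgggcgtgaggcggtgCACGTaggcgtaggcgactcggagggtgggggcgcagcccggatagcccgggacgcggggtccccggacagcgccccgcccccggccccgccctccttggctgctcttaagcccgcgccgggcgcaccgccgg
The Ldha window holds 3 matches, 2 of which overlap as a palindrome, and the other 2 windows hold 1 each.

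Immediate early genes, which respond within minutes to serum, stretch or handling, were higher in part. Of 34 tested, 5 rose (1.11% of all tested genes did) and 0 fell, and the median log2 change was 0.57. Fos, a subunit of AP-1, had 79.2, 15.9 and 8.96 CPM at 10-13 weeks, against 6.50, 4.47 and 7.73 CPM at 3-4 weeks (log2 change 2.47, SE 0.64, adjusted p = 0.0342). Its mean was set by the 10-13 weeks library numbered 1. Btg2, an antiproliferative gene, had 41.6, 13.1 and 9.01 CPM at 10-13 weeks, against 2.62, 3.95 and 7.69 CPM at 3-4 weeks (log2 change 2.15, SE 0.58, adjusted p = 0.0433), with the same library highest. Without that library 1 member was called, as was the case without the 3-4 weeks library numbered 1 or 2. In that order, 109 of 13986, 90 of 13973 and 142 of 13982 tested genes were called higher. Egr1 had 458, 85.6 and 103 CPM at 10-13 weeks, against 20.3, 25.3 and 137 CPM at 3-4 weeks and did not pass (adjusted p = 0.289). Dusp1, a phosphatase that ends MAP kinase signals, was the member with the smallest adjusted p, with 167, 107 and 103 CPM at 10-13 weeks, against 52.4, 54.9 and 74.0 CPM at 3-4 weeks (log2 change 1.05, SE 0.20, adjusted p = 0.00477). Zfp36, which destabilises cytokine mRNA, rose too (log2 change 1.11, adjusted p = 0.0211). With the 12 normal glucose libraries alone 2 members were called, where 120 of 13567 tested genes were called higher.

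Srf, the serum response factor, had 105, 106 and 95.9 CPM at 10-13 weeks, against 71.7, 68.2 and 83.6 CPM at 3-4 weeks (log2 change 0.46, SE 0.13, adjusted p = 0.0485). Its promoter is shown because it holds the site that its own protein is known to bind, the CArG box, in capitals: 2 copies in the 150 bases before the start (RefSeq, GRCr8), against a match in 0.878% of the 33469 promoters searched on both strands. Of 34 tested immediate early genes 24 matched a promoter, again under 80%.
Srf (chr9:21923926-21924075, plus strand): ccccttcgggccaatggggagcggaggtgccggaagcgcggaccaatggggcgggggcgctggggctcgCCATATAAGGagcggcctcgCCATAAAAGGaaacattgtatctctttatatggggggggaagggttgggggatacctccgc

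Targets of YAP and TEAD, which report cell spreading and tension, gave 3 increases and 0 decreases among 17 genes tested, with a median log2 change of 0.22. Of all tested genes 1.11% rose and 2.48% fell. Of the 8 genes for factors of that pathway 0 were called. Cyr61, a secreted matricellular protein, had 1444, 1033 and 978 CPM at 10-13 weeks, against 504, 494 and 597 CPM at 3-4 weeks (log2 change 1.12, SE 0.17, adjusted p = 0.000964). Ankrd1, a cardiac ankyrin repeat protein, had 389, 418 and 436 CPM at 10-13 weeks, against 188, 229 and 219 CPM at 3-4 weeks (log2 change 0.97, SE 0.18, adjusted p = 0.00327). Both groups were clearly apart, and both calls held whichever single library was left out. Amotl2, a feedback inhibitor of YAP, rose less (log2 change 0.37, adjusted p = 0.0235) and lost its call without any of 4 of the 6 libraries. Ctgf, another target, had 5248, 5537 and 5027 CPM at 10-13 weeks, against 4550.3, 3749.7 and 3964 CPM at 3-4 weeks (log2 change 0.37, adjusted p = 0.114) and did not pass.

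**Figure D4:**
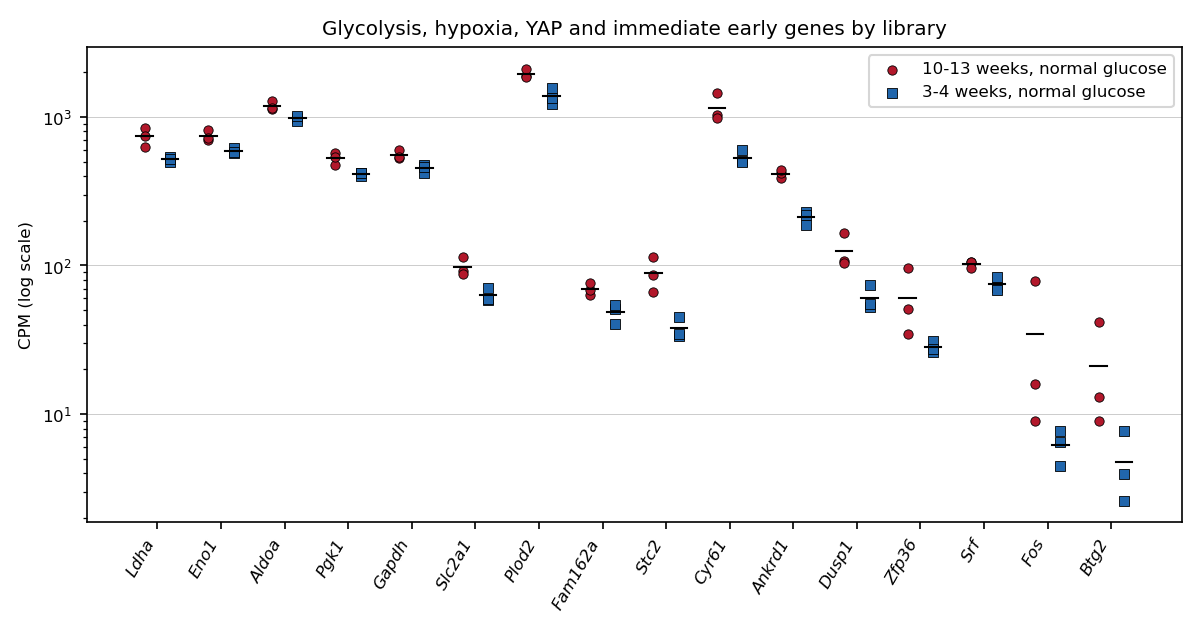
CPM on a log axis of 16 genes of the glycolysis, hypoxia, YAP and immediate early lists, in the 3 libraries at 10-13 weeks (red circles) and the 3 at 3-4 weeks (blue squares), with group means as bars. The glycolysis differences are small and even (Ldha log2 change 0.52), Cyr61 and Ankrd1 are about 1 log2 unit higher, and the spread of Fos and Btg2 at 10-13 weeks comes from 1 high library.

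Contractile genes gave 1 call among 22 tested, Cnn2, calponin 2 (log2 change 0.27, SE 0.064, adjusted p = 0.0174), where 1.11% of all tested genes rose. The Cnn2 call was lost without the 10-13 weeks library numbered 2 or the 3-4 weeks library numbered 1. Of the 22, 21 had a positive log2 change, and the median was 0.27. Acta2, the smooth muscle actin that marks myofibroblasts, had 2933, 3483 and 3007 CPM at 10-13 weeks, against 2659.9, 2945 and 2170.1 CPM at 3-4 weeks (log2 change 0.28, SE 0.15, adjusted p = 0.35), with overlapping groups. Thy1, a surface marker of fibroblasts, had 359, 324 and 314 CPM at 10-13 weeks, against 259.6, 233 and 253 CPM at 3-4 weeks. It did not pass (log2 change 0.42, adjusted p = 0.0866). Its groups did not overlap, as was so for 7.84% of all tested genes in that direction.

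The main matrix genes did not pass the test. Col1a1, the first chain of type I collagen, had 31824, 31057 and 26359.8 CPM at 10-13 weeks, against 28260.3, 30438 and 27054 CPM at 3-4 weeks (log2 change 0.058, SE 0.089, adjusted p = 0.818). Col3a1 (log2 change 0.14, adjusted p = 0.64), Fn1, which encodes fibronectin (log2 change 0.10, adjusted p = 0.73), and Postn, the matricellular protein periostin (log2 change -0.31, adjusted p = 0.488), did not pass either. Among 25 collagen genes tested 1 rose and 1 fell (1.11% and 2.48% of all tested genes did), with a median log2 change of 0.09. Col4a4, a basement membrane collagen chain, had 19.9, 14.0 and 11.5 CPM at 10-13 weeks, against 41.4, 43.1 and 55.1 CPM at 3-4 weeks (log2 change -1.62, SE 0.25, adjusted p = 0.00116). Its groups were far apart in all libraries. Col4a1, the abundant chain of the same collagen type, had 10402, 10121 and 10082 CPM at 10-13 weeks, against 9074, 8635 and 8674 CPM at 3-4 weeks (log2 change 0.21, SE 0.060, adjusted p = 0.0492). This call was lost without any 1 of the 6 libraries.

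Other matrix genes changed singly, where 1.11% of all tested genes rose and 2.48% fell. Of 35 matrix glycoproteins 1 was called, Ltbp1, which holds latent TGF-beta in the matrix, with 291, 292 and 263 CPM at 10-13 weeks, against 163, 183 and 211 CPM at 3-4 weeks (log2 change 0.60, SE 0.12, adjusted p = 0.0046). Of 18 proteoglycans 1 was called, Sdc4, the focal adhesion syndecan (log2 change 0.69, adjusted p = 0.0355). The Sdc4 call was lost without any of 3 of the 6 libraries. Of 44 genes of matrix remodelling 4 fell and 1, Plod2, rose. Plau, the urokinase-type plasminogen activator, had 4.14, 3.85 and 3.54 CPM at 10-13 weeks, against 15.9, 13.1 and 6.90 CPM at 3-4 weeks (log2 change -1.63, SE 0.33, adjusted p = 0.0066). Serpinf1, a secreted serpin that limits vessel growth, had 588, 573 and 659 CPM at 10-13 weeks, against 809.6, 847 and 778 CPM at 3-4 weeks (log2 change -0.42, SE 0.075, adjusted p = 0.00265). P3h2, a collagen prolyl 3-hydroxylase, had 7.61, 6.37 and 8.70 CPM at 10-13 weeks, against 13.4, 13.6 and 13.5 CPM at 3-4 weeks (log2 change -0.83, SE 0.18, adjusted p = 0.0116). Adamts15, a proteoglycan-cleaving protease, fell as well (log2 change -1.14, adjusted p = 0.0437). In Serpinf1 and P3h2 the 3 values at 3-4 weeks were alike. P3h2 lost its call without the 10-13 weeks library numbered 2.

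In the TGF-beta and BMP list, 3 of 46 tested genes fell (2.48% of all tested genes did) and 0 rose, with a median log2 change of 0.04. Tgfbr1, the type I receptor of TGF-beta, had 26.1, 24.0 and 23.0 CPM at 10-13 weeks, against 36.8, 35.9 and 31.6 CPM at 3-4 weeks (log2 change -0.51, SE 0.095, adjusted p = 0.0035). The BMP antagonists Chrd (log2 change -0.61, adjusted p = 0.0152) and Nog (log2 change -1.75, adjusted p = 0.0314) fell too. Nog lost its call without any of 5 of the 6 libraries, and Chrd without the 3-4 weeks library numbered 1 or the 10-13 weeks library numbered 3. Tgfb1, the ligand, did not pass (log2 change 0.080, adjusted p = 0.839). Off the list, Tll1, a tolloid protease that cleaves chordin, rose, with 21.2, 22.1 and 11.0 CPM at 10-13 weeks, against 6.45, 6.91 and 3.52 CPM at 3-4 weeks (log2 change 1.69, SE 0.31, adjusted p = 0.00422). Bmper, a BMP-binding protein chosen after its value was seen, rose as well (log2 change 1.52, adjusted p = 0.00357). In the Wnt list 1 of 41 fell, near the 2.48% of all tested genes, the secreted protein Dkk3 (log2 change -0.70, adjusted p = 0.0285), whose call was lost without any of 5 of the 6 libraries.

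Of 18 genes of the IGF axis 2 rose and 0 fell (1.11% and 2.48% of all tested genes did). Pappa2, a protease that releases IGF from its binding proteins, had 15.1, 14.9 and 18.9 CPM at 10-13 weeks, against 3.93, 5.40 and 4.16 CPM at 3-4 weeks (log2 change 1.86, SE 0.23, adjusted p = 0.000143). Stc2, given above with the hypoxia genes, is also known to inhibit pappalysins. The Pappa2 groups lay far apart, with little spread inside either. Among 32 growth factor genes 1 rose, Fgf18, at a low level (2.64, 2.84 and 2.40 CPM at 10-13 weeks, against 1.68, 0.520 and 0.636 CPM at 3-4 weeks; log2 change 1.47, SE 0.36, adjusted p = 0.0241). Its call was lost without any of 4 of the 6 libraries.

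Several receptors and ligands outside these lists were among the increases with the smallest adjusted p. Edn1, the precursor of the vasoconstrictor endothelin-1, had 197, 122 and 172 CPM at 10-13 weeks, against 60.5, 49.5 and 64.1 CPM at 3-4 weeks (log2 change 1.5, SE 0.21, adjusted p = 0.000442). S1pr3, a receptor for sphingosine 1-phosphate, had 132, 204 and 181 CPM at 10-13 weeks, against 77.4, 87.4 and 74.0 CPM at 3-4 weeks (log2 change 1.11, SE 0.15, adjusted p = 0.000398). Il1rap, the accessory chain of the receptors for IL-1 and IL-33, had 34.6, 40.2 and 37.8 CPM at 10-13 weeks, against 19.6, 19.1 and 15.6 CPM at 3-4 weeks (log2 change 1.05, SE 0.15, adjusted p = 0.000604). Il1rl1, the IL-33 receptor, was the 1 of 35 cytokine and chemokine genes to rise (log2 change 1.22, adjusted p = 0.0392), where 1.11% of all tested genes rose. This call was lost without either of 2 libraries at 10-13 weeks or 2 at 3-4 weeks.

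Ramp3, which shapes the adrenomedullin receptor, rose with 37.3, 63.3 and 26.7 CPM at 10-13 weeks, against 11.0, 16.9 and 13.5 CPM at 3-4 weeks (log2 change 1.62, SE 0.35, adjusted p = 0.0116). Cadm4, a cell adhesion molecule, had 156, 260.0 and 191 CPM at 10-13 weeks, against 80, 80.1 and 45.4 CPM at 3-4 weeks (log2 change 1.56, SE 0.27, adjusted p = 0.00242). Ccbe1, a matrix protein needed for lymphatic growth, had 32.0, 34.7 and 29.8 CPM at 10-13 weeks, against 10.6, 7.69 and 15.2 CPM at 3-4 weeks (log2 change 1.53, SE 0.37, adjusted p = 0.0234). The potassium channel genes Kcnk2 (log2 change 1.69, adjusted p = 0.0186) and Kcnmb1 (log2 change 1.67, adjusted p = 0.00286) and the secretory granule gene Ptprn (log2 change 1.56, adjusted p = 0.00107) rose, as did Tmem59l (log2 change 2.07, adjusted p = 0.00127). Kcnk2 lost its call without any of 5 of the 6 libraries, Ccbe1 without any of 4 and Ramp3 without either of 2. Igh-1a, an immunoglobulin heavy chain gene, rose at a low level, with 3.31, 4.33 and 4.79 CPM at 10-13 weeks, against 2.04, 0.468 and 0.636 CPM at 3-4 weeks (log2 change 1.98, SE 0.38, adjusted p = 0.00422). The B cell genes Ms4a1 and Cd79b had no count in either group.

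Few genes of fetal growth were called, where 1.11% of all tested genes rose and 2.48% fell. Igf2bp3, a fetal RNA-binding protein that raises Igf2 translation, had 1.19, 1.18 and 1.15 CPM at 10-13 weeks, against 7.08, 5.51 and 4.50 CPM at 3-4 weeks (log2 change -2.27, SE 0.23, adjusted p = 9.91e-06). This was the smallest adjusted p of the genes called lower. Over the 4 ages its mean was 21.9 CPM at 0-3 days, 5.70 CPM at 3-4 weeks, 1.17 CPM at 10-13 weeks and 2.70 CPM at 20 months. Plag1, a transcription factor of fetal growth, fell at levels under 1 CPM (log2 change -1.75, adjusted p = 0.0149). Its call was lost without any of 3 of the 6 libraries. Igf2bp3 and Plag1 were 2 of 23 tested members of the fetal and imprinted list, with 0 higher. Igf2 itself had 0.104, 0.214 and 0.0521 CPM at 10-13 weeks, against 0, 0.260 and 0.587 CPM at 3-4 weeks and did not pass (log2 change -1.19, adjusted p = 0.623). Its mean was 8.55 CPM at 0-3 days. Among 47 embryonic transcription factors, Sox11 fell, with 4.09, 5.19 and 4.48 CPM at 10-13 weeks, against 11.0, 13.7 and 7.73 CPM at 3-4 weeks (log2 change -1.23, SE 0.24, adjusted p = 0.0048). Nr2f1, an orphan nuclear receptor, rose (log2 change 0.67, adjusted p = 0.0201) and lost its call without any of 4 of the 6 libraries.

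Other programmes gave few calls, where 1.11% of all tested genes rose and 2.48% fell. Of 28 nuclear receptor and hormone target genes, Fkbp5 rose (log2 change 0.67, adjusted p = 0.0234). Tsc22d3 fell, with 36.5, 37.6 and 39.4 CPM at 10-13 weeks, against 59.1, 65.2 and 51.2 CPM at 3-4 weeks (log2 change -0.63, SE 0.13, adjusted p = 0.00766). Both are known glucocorticoid targets. Of 20 senescence and p53 genes 2 fell, Tp53inp1 (log2 change -0.77, adjusted p = 0.00713) and Sesn1 (log2 change -0.52, adjusted p = 0.0485). Of 52 stress response genes 1 fell, Ddit3, which encodes CHOP (log2 change -0.64, adjusted p = 0.0244). The calls of Fkbp5, Ddit3 and Sesn1 were each lost without any of 4 or 5 of the 6 libraries, and that of Tp53inp1 without the 3-4 weeks library numbered 1. Of 37 cell cycle, 32 sterol and fatty acid synthesis, 16 circadian and 9 glucose sensing genes, 0 were called by edgeR, with 4 at an unadjusted p under 0.05, and DESeq2 called 0. Over all 13806 tested genes edgeR gave 2310 at an unadjusted p under 0.05. Mki67, the proliferation antigen, had 158, 172 and 129.6 CPM at 10-13 weeks, against 62.3, 303 and 156 CPM at 3-4 weeks (log2 change -0.18, SE 0.52, adjusted p = 0.913). The spread at 3-4 weeks was wider than the difference. Txnip, a glucose-responsive gene, had 109, 120.0 and 129 CPM at 10-13 weeks, against 132, 181 and 142 CPM at 3-4 weeks (log2 change -0.35, SE 0.16, adjusted p = 0.27).

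Mitochondrially encoded genes moved in both directions: of 11 tested 2 rose and 2 fell (1.11% and 2.48% of all tested genes did). Mt-nd4, a complex I subunit, had 993, 901 and 1101 CPM at 10-13 weeks, against 684, 621 and 687 CPM at 3-4 weeks (log2 change 0.59, SE 0.089, adjusted p = 0.000954). Mt-nd4l, which overlaps it, rose too (log2 change 0.45, adjusted p = 0.00695). Mt-atp6, an ATP synthase subunit, had 229, 208 and 265 CPM at 10-13 weeks, against 327, 354 and 366 CPM at 3-4 weeks (log2 change -0.58, SE 0.12, adjusted p = 0.00662). Mt-atp8, which overlaps it, fell too (log2 change -0.45, adjusted p = 0.0128). Counting of overlapping genes is uncertain, so each pair may be 1 signal counted in 2 genes. Mt-atp6 lost its call without the 10-13 weeks library numbered 2, and Mt-atp8 without that numbered 1 or 2.

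**Figure D5:**
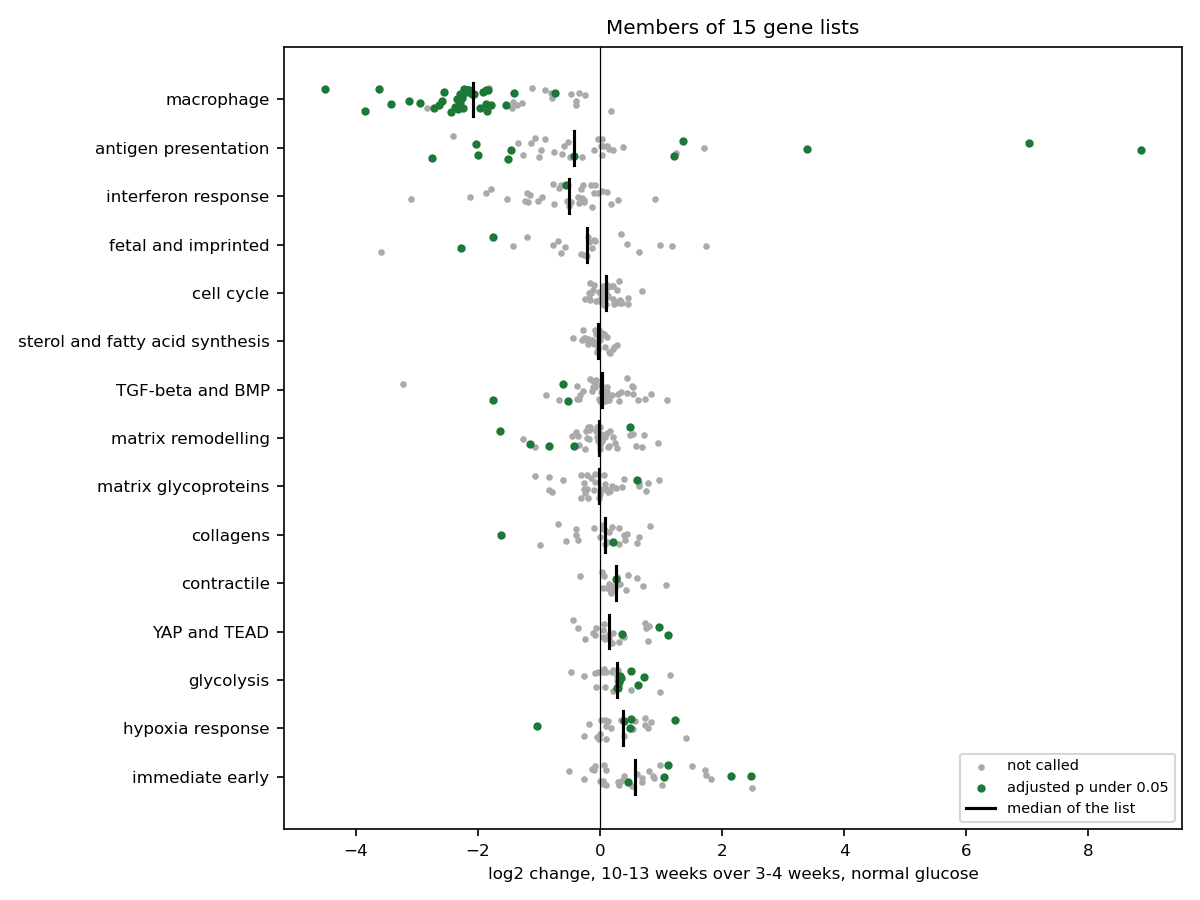
Log2 change of each tested member of 15 gene lists, 10-13 weeks over 3-4 weeks in normal glucose (horizontal axis), 1 row per list; green points passed an adjusted p of 0.05, grey points did not, and black bars are the medians. The macrophage list is shifted as a whole (median -2.08), antigen presentation spreads to both sides, and the immediate early, hypoxia and glycolysis medians lie at 0.57, 0.37 and 0.28.

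The same comparison in high glucose, which shares no library with that in normal glucose, called 1144 genes (8.29%), 491 higher (3.56%) and 653 lower (4.73%). The labels do not say whether same-numbered cultures at 5.5 mM and 33 mM come from 1 animal. In all 12 such pairs of 1 age and number the libraries deviated together from their group means, with correlations over genes of 0.201 to 0.668, so the high glucose values are not an independent repeat. Of the 153 genes called higher in normal glucose, 136 (88.9%) were also called higher in high glucose, which is 27.7% of the 491 called there. Of the 343 called lower, 296 (86.3%) were, which is 45.3% of the 653. Mpeg1, for instance, had 1.14, 0.872 and 1.87 CPM at 10-13 weeks and 28.0, 10.2 and 11.3 CPM at 3-4 weeks in high glucose (log2 change -3.65, adjusted p = 0.000159). Cyr61 had 1426, 1048 and 1696 CPM at 10-13 weeks and 637, 511 and 524 CPM at 3-4 weeks there (log2 change 1.32, adjusted p = 0.000159).

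Whether the age difference depended on glucose was tested as the difference between the 2 age changes. edgeR called 0 genes (0% of 13806), with 206 at an unadjusted p under 0.05 (1.49%). DESeq2 called 0 as well, with 240 at an unadjusted p under 0.05. That fit takes the same-numbered libraries of both glucose levels as independent. With same-numbered cultures of 1 age joined as a replicate block, a fit chosen after seeing the data, edgeR called 8 genes (0.0579%), with 1081 at an unadjusted p under 0.05 (7.83%). Adamts15, the protease given above with the matrix genes, was the one of the 8 called in normal glucose, and it fell further in high glucose, with 5.74, 5.23 and 3.74 CPM at 10-13 weeks and 25.2, 21.3 and 31.5 CPM at 3-4 weeks in high glucose, and 16.6, 10.9 and 13.2 CPM at 10-13 weeks, against 34.5, 23.6 and 31.7 CPM at 3-4 weeks in normal glucose. Its log2 change was -2.41 in high glucose and -1.14 in normal glucose, a difference of -1.27 (SE 0.18, adjusted p = 0.0186 with the block). For genes other than these 8, a difference in calls between the glucose levels is not shown to be a difference in the age change.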

How the data were processed

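Cells of each age were cultured for 24 hours in 5.5 mM or 33 mM glucose, and total RNA was sequenced. The deposited table gives whole-number counts, without normalization, for 30957 genes in 24 libraries, and the deposited FPKM values (counts scaled by gene length and library total) beside them. The submitters' processing notes name the build Rnor_6.0 and the tools edgeR, StringTie 1.3.0 and HISAT2 2.0.4. The annotation, strandedness and rule for shared reads are not given in the sources used here, which limits overlapping and near-identical genes. The 24 libraries held 18874548 to 24654286 counts.

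The analysis used edgeR 4.0.16 under R 4.3.3: filterByExpr by group (minimum count 10, minimum total 15; 13806 genes kept), TMM scaling, a robust quasi-likelihood fit with 1 mean per group over all 24 libraries, and Benjamini-Hochberg adjustment over all tested genes, called at 0.05. Tests are two-sided; the SE is the size of the log2 change over the root of the F value. Where a symbol has several identifiers, that with the most counts was used. On simulated counts for 13607 genes, 75% of 2-fold and 95% of 4-fold changes were recovered, with 6 false among 176 calls. The simulated libraries were drawn independently of each other, and the changed genes came from those averaging at least 10 counts. These shares therefore do not carry over to libraries that deviate together or to genes with fewer counts. Replicates of 1 group were compared, and all differed by more than sampling noise. Same-numbered libraries of both glucose levels of 1 age deviated together in all 12 pairs (correlations over genes of 0.201 to 0.668), so the test of the difference between glucose levels was also made with that number as a block. DESeq2 1.42.0 and the alternatives of the closing section were run beside the main fit.

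The members and the 39 gene lists were chosen with earlier results of these data known. Genes named are, among called genes with non-overlapping groups and a mean log2 CPM of at least 1, the 15 with the largest change and the 10 with the smallest adjusted p in each direction, then up to 4 called members per list, or the 2 with the smallest p where none was called, and 11 fixed genes. A few further genes were named for comparison within their list; those outside lists and rule are said to be chosen after their values were seen. Promoters are RefSeq sequences of GRCr8 matched by symbol or gene identifier.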

Additional observations from a re-analysis of the deposited data

Results flagged for a closer look

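The age difference (10-13 weeks against 3-4 weeks) differed between high and normal glucose for 8 genes when same-numbered cultures of 1 age were joined as a replicate block, a fit chosen after seeing the data (edgeR quasi-likelihood test, Benjamini-Hochberg adjustment over 13806 genes). Without that block 0 genes passed, with 206 at an unadjusted p under 0.05, and DESeq2 called 0. The differences below come from the fit with the block, and the changes in each glucose level from the fit without it. Adamts15, a proteoglycan-cleaving protease, had a log2 age change of -2.41 in high glucose and -1.14 in normal glucose, a difference of -1.27 (SE 0.18, adjusted p = 0.0186). Itga6, the integrin alpha 6 chain, had a log2 age change of 0.0097 in high glucose and -0.83 in normal glucose, a difference of 0.86 (SE 0.14, adjusted p = 0.0314). Acsl3, a long-chain acyl-CoA synthetase, had a log2 age change of -0.62 in high glucose and -0.13 in normal glucose, a difference of -0.49 (SE 0.08, adjusted p = 0.0314). Agtr1a, a receptor for angiotensin II, had a log2 age change of -0.92 in high glucose and -0.17 in normal glucose, a difference of -0.77 (SE 0.13, adjusted p = 0.0339). C2, a complement protease, had a log2 age change of -6.03 in high glucose and -2.65 in normal glucose, a difference of -3.46 (SE 0.59, adjusted p = 0.0339). Chst2, a carbohydrate sulfotransferase, had a log2 age change of 0.53 in high glucose and 0.0093 in normal glucose, a difference of 0.52 (SE 0.092, adjusted p = 0.0394). Clec14a, a C-type lectin of endothelium, had a log2 age change of 0.32 in high glucose and -0.43 in normal glucose, a difference of 0.76 (SE 0.14, adjusted p = 0.0394). Mef2a, a transcription factor of muscle, had a log2 age change of 0.17 in high glucose and -0.31 in normal glucose, a difference of 0.49 (SE 0.089, adjusted p = 0.0394). C2 was carried by the libraries numbered 3, with 0.137 CPM at 10-13 weeks, against 14.2 CPM at 3-4 weeks in high glucose, and 1.67 CPM at 10-13 weeks, against 11.5 CPM at 3-4 weeks in normal glucose, while every other library of these groups was under 1 CPM. The genes other than Adamts15 were not called in normal glucose, and none of the 8 is on the glycolysis or glucose sensing lists.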

How the results depend on the processing

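The call count of 496 became 493 with median-ratio (RLE) scaling, 544 with plain library totals, 437 with no filter, 470 with a minimum mean of 1 CPM, 495 without robust estimation and 702 (243 higher, 459 lower) in DESeq2, all within 1.5 times. It was 340 without both 3-4 weeks libraries numbered 1, and 227 to 467 without single libraries. With fewer samples in the fit it fell to 282 (12 libraries of both ages) and to 141 (37 higher, 104 lower; the 6 libraries alone). The labels give no pairing by replicate number. The deviations of same-numbered libraries of the 2 ages had correlations of -0.047, 0.14 and 0.022, and those of differently numbered ones -0.12 to 0.10. With 3 libraries a group, these values cannot show whether the numbers mark a shared preparation. With the replicate number as a block the count was 591 over 24 libraries, and 33 (18 higher, 15 lower) over the 6 libraries alone, where the block leaves fewer residual degrees of freedom. A pair of fits were chosen after seeing the data. The 12 normal glucose libraries of the 4 ages alone called 401. The age difference between glucose levels called 8 genes (4 in each direction) with same-numbered cultures of 1 age joined as a replicate block, and 0 in each of the other alternatives run.

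Of 119 named genes, 2 changed sign. Without single libraries the log2 change of Pdgfra ran from -0.42 to 0.20, the highest without the 3-4 weeks library numbered 3. That of Mki67 ran from -0.58 to 0.49, the highest without that numbered 2, and was 0.021 with the replicate block and 0.059 with the block over 6 libraries alone. Neither gene was called, and the cause was not tested. Of the 88 named genes that were called, 53 kept their call whichever of the 6 libraries was left out. Without single libraries 89 to 105 of the 119 kept their direction and their side of the threshold. Depth limits the genes near 1 CPM, where a library holds about 20 counts.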

Other observations

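Among the decreases with the smallest adjusted p were genes that are not leukocyte genes by name. Mgst1, a microsomal glutathione transferase, had 16, 12.4 and 14.4 CPM at 10-13 weeks, against 32.0, 27.0 and 32.8 CPM at 3-4 weeks (log2 change -1.10, SE 0.13, adjusted p = 0.000114). Mtss1, a regulator of the actin cytoskeleton, had 5.85, 4.12 and 5.52 CPM at 10-13 weeks, against 15.5, 14.1 and 17.5 CPM at 3-4 weeks (log2 change -1.60, SE 0.20, adjusted p = 0.000143). Stom, the membrane protein stomatin, had 59.3, 51.3 and 52.7 CPM at 10-13 weeks, against 89.4, 117 and 95.9 CPM at 3-4 weeks (log2 change -0.89, SE 0.12, adjusted p = 0.00039), and Slc43a2, an amino acid transporter, had 8.13, 8.29 and 7.45 CPM at 10-13 weeks, against 18.4, 15 and 14.4 CPM at 3-4 weeks (log2 change -1.0, SE 0.14, adjusted p = 0.000398). In none of these 4 did the 3-4 weeks library numbered 1 exceed the other two by 1.5 times. Over the 4 ages Mgst1 averaged 22.1 CPM at 0-3 days, 30.6 CPM at 3-4 weeks, 14.2 CPM at 10-13 weeks and 43.2 CPM at 20 months in normal glucose, so 10-13 weeks was its lowest age, and Mtss1 averaged 31.9 CPM at 0-3 days, 15.7 CPM at 3-4 weeks, 5.16 CPM at 10-13 weeks and 15.2 CPM at 20 months, with its highest level at 0-3 days. Enpp5 fell as well, with 0.932, 0.482 and 0.885 CPM at 10-13 weeks, against 5.40, 2.29 and 2.84 CPM at 3-4 weeks (log2 change -2.18, SE 0.32, adjusted p = 0.00074), and there the 3-4 weeks library numbered 1 was the highest.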
